A study of Mus musculus with 6 samples.

Results

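Complement is a cascade of plasma proteases and pore-forming proteins, and hepatocytes make most of its soluble parts. It starts through the lectin route (mannose-binding lectins and ficolins with the MASP proteases), the classical route (C1, C4 and C2) or the alternative route (C3, factor B, factor D and properdin). All routes cleave C3 and then C5, the terminal components form the membrane attack complex, and regulators in plasma and on membranes hold the cascade back. Here 34 such genes, chosen by symbol, were described out of 28476 in the deposited expression table, and all 34 were found there. They comprise 5 lectin, 6 classical, 4 alternative, 7 terminal, 10 regulator and 2 receptor genes, with C3 placed in the alternative group.

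The livers came from C57BL/6 mice that were fasted, injected with 300 mg/kg acetaminophen (APAP) and sampled after 24 h. One group of 3 libraries carries the genotype label Nedd4 HepKO, a loss of the ubiquitin ligase gene Nedd4 that the label ties to hepatocytes by its name, and the other group of 3 is labelled Flox. Which Cre driver was used, and the sex and age of the animals, are not stated, and livers without acetaminophen are not analysed here. Levels are in FPKM (mapped fragments scaled by transcript length and library size), so they can be compared between genes.

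Nedd4 itself had 0.618, 0.666 and 0.565 FPKM in the HepKO libraries, against 2.18, 2.59 and 2.23 FPKM in the Flox libraries. It was lower in every HepKO library (log2 fold change -1.04, SE 0.10, limma adjusted p = 0.00148). An exact two-sided permutation test gave p = 0.10, the smallest possible with 3 against 3 libraries. FPKM summed to between 456176 and 496303 per library, while the number of reads is unknown. Mitochondrial transcripts took 24.6% of FPKM in HepKO replicate 1, 17.2% and 18.3% in its group mates and 16.7% to 18.1% in Flox libraries. The liver label was checked against hepatocyte markers, and the 9 measured ones, Alb among them, summed to 49368 to 53924 FPKM in HepKO libraries and 44955 to 51252 FPKM in Flox libraries. Alb, Apoa1 and Apoa2 made up most of these sums. Of these 9 genes, 1 was called higher and 2 lower. Fgb, called higher, averaged 4010 FPKM in HepKO libraries and 2288 FPKM in Flox libraries. Cps1 and Hnf4a, called lower, averaged 143 and 93.0 FPKM in HepKO libraries, against 344 and 124 FPKM in Flox libraries.

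The summed level of the complement genes was lower in HepKO libraries, and both anaphylatoxin receptors rose. The 34 genes together summed to 3748, 3795 and 3775 FPKM in HepKO libraries, against 4907, 5288 and 4863 FPKM in Flox libraries. Every HepKO library lay below every Flox library. C3 and Vtn, the most abundant members, made up much of this sum. Their means were 926 and 885 FPKM in HepKO libraries, against 1271 and 1195 FPKM in Flox libraries. The sum took 0.755% to 0.823% of all FPKM in HepKO libraries and 1.05% to 1.15% in Flox libraries. Of the 31 members with a mean of at least 0.5 FPKM, 14 fell, 2 rose and 15 did not pass (limma on log2(FPKM + 1), Benjamini-Hochberg adjusted p under 0.05 over 12712 genes). Over all tested genes, 11.0% were called lower and 9.33% higher. The median log2 fold change was -0.43 over the tested members and -0.06 over all tested genes. Cfd, C7 and Cd46 averaged under 0.5 FPKM and were not in this test.

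**Figure D1:**
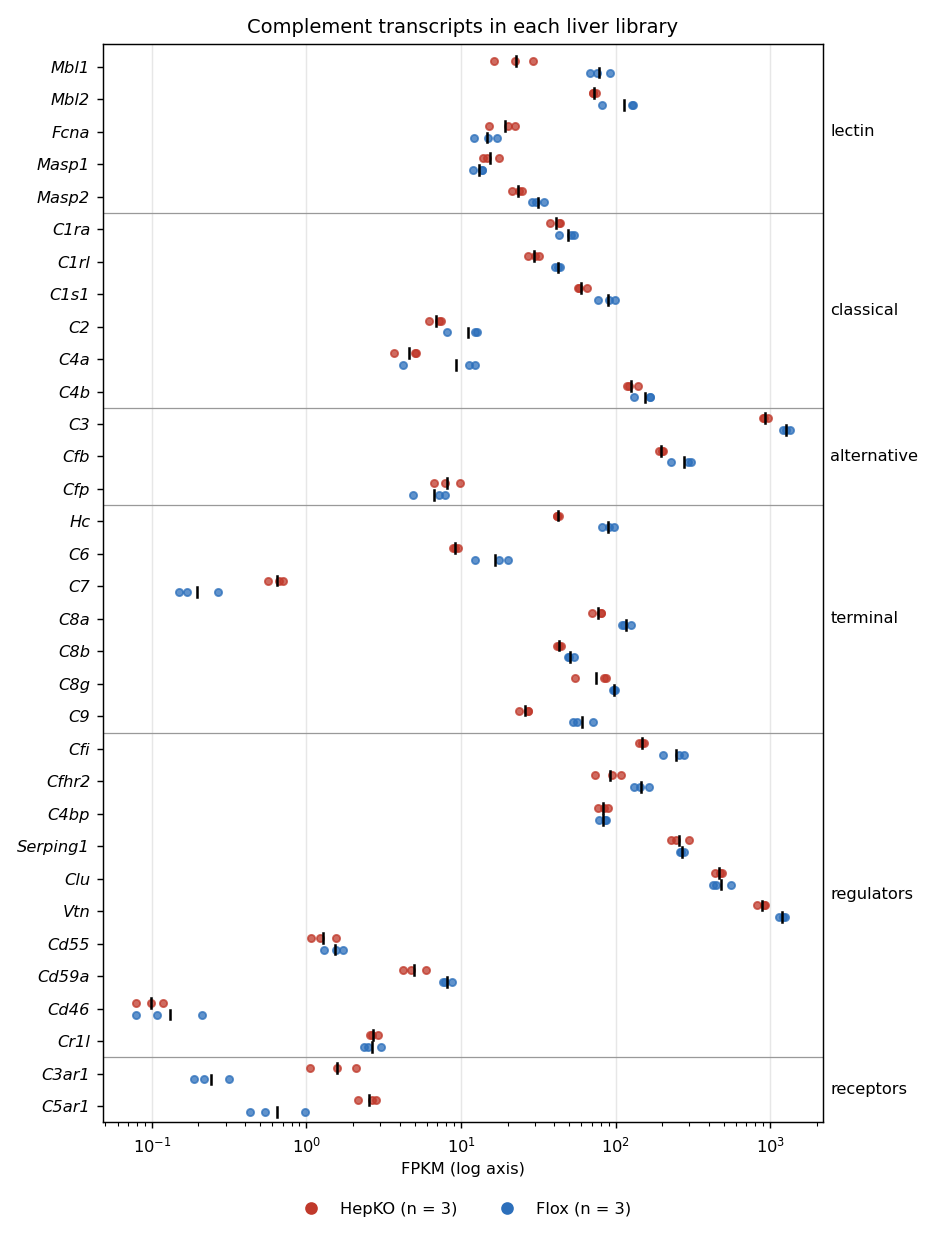
FPKM of 33 complement genes in each library on a log axis, HepKO (red) above Flox (blue), with group means as black ticks (n = 3 each). Cfd, listed at 0 in 5 libraries, is not drawn. C3 and Vtn lie highest, while C7, Cd46, C3ar1 and C5ar1 lie near or under a few FPKM.

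The count of falls changed when a single library was left out. It was 8 without HepKO replicate 1, 5 without HepKO replicate 2, 9 without HepKO replicate 3, 14 without Flox replicate 1, 3 without Flox replicate 2 and 6 without Flox replicate 3. The size of the falls moved less. The median log2 fold change over tested members ran from -0.395 (without Flox replicate 2) to -0.460 (without Flox replicate 1), against -0.434 with all libraries. The falls of Mbl1, Hc and C9 and the rises of C3ar1 and C5ar1 passed in all 6 of these fits. Over all 12712 tested genes, the calls also dropped. Genes called lower numbered 792, 616 and 1302 without HepKO replicates 1, 2 and 3. They numbered 1167, 637 and 687 without Flox replicates 1, 2 and 3, against 1397 with all libraries. Without Flox replicate 2, 685 genes were called higher, against 1186 with all libraries. In the authors' deposited table, 9 members had a q-value under 0.05 and a lower HepKO mean, and 3 had a higher one, where 3.57% and 5.39% of all 28476 genes did so. Of those 12 members, 7 lower and 2 higher ones were also called by limma. Mbl2 (q = 0.0484) and C4a (q = 0.0247) were lower by q-value alone, and C7 (q = 0.00636) was higher but not in the limma test. Masp2, C1rl, C1s1, C3, Cfb, Vtn and Cd59a were called lower by limma alone, with q-values from 0.0625 (C1s1) to 0.232 (Masp2).

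**Figure D2:**
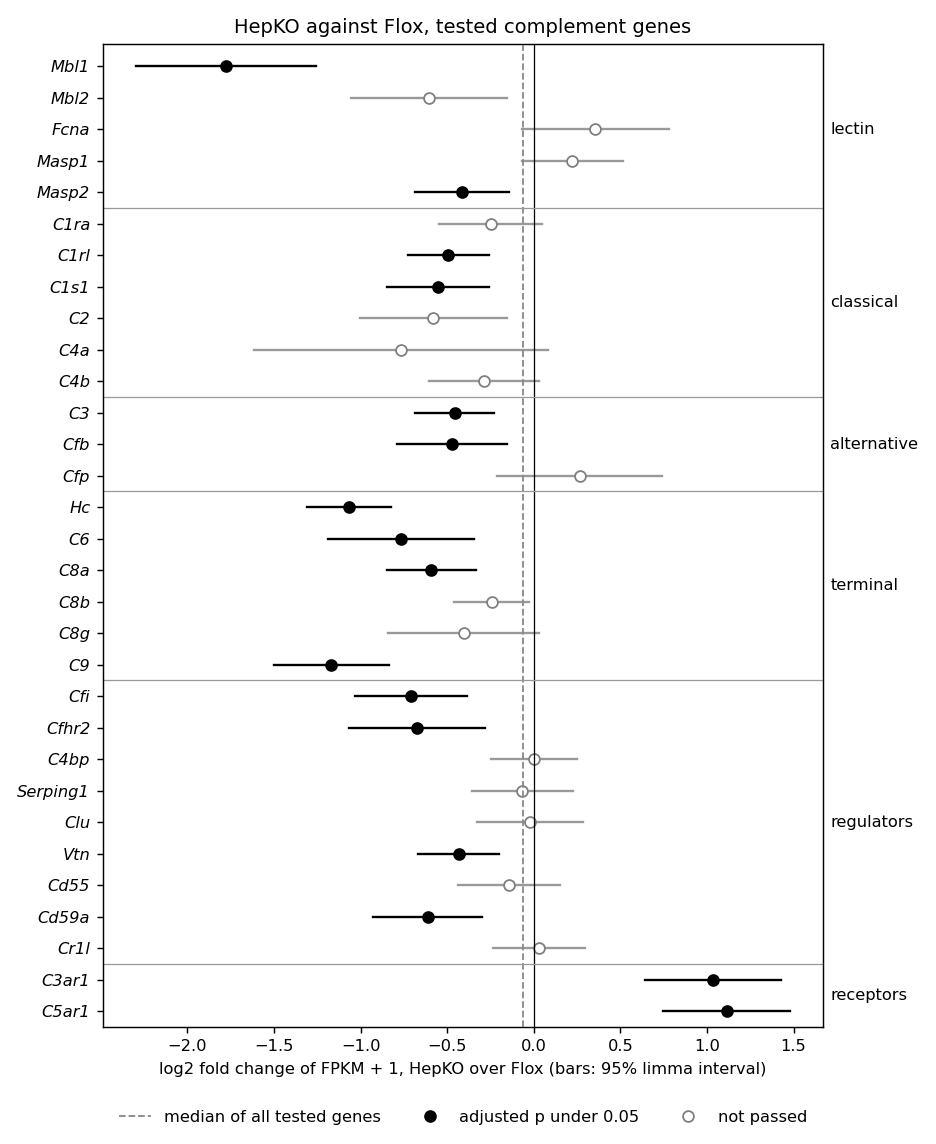
Log2 fold change of FPKM + 1, HepKO over Flox, for the 31 tested complement genes in 6 role groups, with 95% limma intervals. Filled points passed at adjusted p under 0.05: 14 lie left of 0 and 2, the receptors, lie right of it. The dashed line is the median of all tested genes, -0.06.

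By role, 4 of 6 tested terminal genes fell, as did 2 of 6 classical, 2 of 3 alternative, 2 of 5 lectin and 4 of 9 regulator genes, while both receptors rose. The median log2 fold change was -0.68 for terminal, -0.52 for classical, -0.46 for alternative, -0.41 for lectin and -0.14 for regulator genes. By summed FPKM the order was different, with HepKO over Flox ratios of 0.610 for lectin, 0.632 for terminal, 0.728 for alternative, 0.757 for classical and 0.800 for regulator genes. Differences between these role groups were not tested. Of 23 members with a mean of at least 10 FPKM, 13 fell and 0 rose, against 18.7% lower and 9.52% higher among all tested genes at that level. Of the 8 tested members below 10 FPKM, 1 fell and 2 rose, against 8.35% and 9.26% of tested genes at that level. Because whole liver was measured, fewer cells of a type and less RNA per cell cannot be told apart.

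Promoter windows from RefSeq (GRCm38.p6, 250 bases before to 50 after the start site) were matched for 26 members. The 4 below are Hc and C9, which fell in all fits, C3, the most abundant member, and C4bp, a hepatic member with no detectable difference. Mbl1 also fell in all fits, but its window is not printed. It matched none of the motifs searched, while each printed window holds a match. Each sequence is 5′ to 3′ along its gene's strand. Capitals mark matches to the motifs described after them.
Hc (chr2:35061363-35061662, minus strand): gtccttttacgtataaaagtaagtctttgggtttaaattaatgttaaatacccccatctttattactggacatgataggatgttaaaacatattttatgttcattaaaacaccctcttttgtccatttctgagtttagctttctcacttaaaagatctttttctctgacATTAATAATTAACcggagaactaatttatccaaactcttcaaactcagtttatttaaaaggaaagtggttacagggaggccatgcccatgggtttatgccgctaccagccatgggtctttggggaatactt
C4bp (chr1:130661569-130661868, minus strand): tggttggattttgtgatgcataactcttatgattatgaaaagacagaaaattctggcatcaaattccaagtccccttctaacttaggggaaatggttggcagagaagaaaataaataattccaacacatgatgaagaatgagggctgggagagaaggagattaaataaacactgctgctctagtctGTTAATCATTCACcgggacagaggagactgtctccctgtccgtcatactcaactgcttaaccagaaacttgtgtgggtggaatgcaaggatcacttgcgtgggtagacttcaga
C9 (chr15:6445096-6445395, plus strand): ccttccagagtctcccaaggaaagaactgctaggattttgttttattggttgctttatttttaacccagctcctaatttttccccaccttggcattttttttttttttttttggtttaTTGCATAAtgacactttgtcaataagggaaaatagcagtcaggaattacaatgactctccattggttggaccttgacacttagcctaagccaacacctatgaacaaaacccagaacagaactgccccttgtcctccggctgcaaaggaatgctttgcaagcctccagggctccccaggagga
C3 (chr17:57228087-57228386, minus strand): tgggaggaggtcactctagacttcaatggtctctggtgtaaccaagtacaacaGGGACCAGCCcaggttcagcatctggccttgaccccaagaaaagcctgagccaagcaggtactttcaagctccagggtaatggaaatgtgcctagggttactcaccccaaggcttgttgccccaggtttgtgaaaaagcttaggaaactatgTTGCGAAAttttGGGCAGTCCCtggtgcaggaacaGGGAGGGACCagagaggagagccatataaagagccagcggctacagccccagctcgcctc

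Both strands were searched. The palindromic HNF1 motif with at most 1 mismatch was in 2 of 26 members, Hc and C4bp, and in 0.248% of 27025 genes with a window. Its match begins 81 bases before the start site in Hc and 64 bases before it in C4bp, each with 1 mismatch. The matched letters differ between the 2 promoters. The C/EBP motif TTGCNNAA was in 5 of 26 members (C1ra, C1rl, C1s1, C3 and C9) and in 12.2% of all genes. It begins 132 bases before the start site in C9 and 45 bases before it in C3. The STAT motif TTCNNNGAA was in 6 members (C1ra, C7, C8a, Cfhr2, Masp2 and Vtn) and in 9.55% of all genes, and the NF-kB motif was in 3 (C1s1, C3 and Cd55) and in 22.9%. The HNF4 motif AAAGTCCA was in 0 of 26 and in 1.46% of all genes. In C3 the capitals also cover 3 NF-kB matches. Among the 12 members called lower with a window, 4 held the C/EBP motif, 4 the STAT motif, 2 the NF-kB motif and 1 the HNF1 motif. Among the 14 other members with a window, these counts were 1, 2, 1 and 1. The difference between these sets was not tested. A letter match is a description and not a binding site.

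In the lectin route, the mannose-binding lectin genes Mbl1 and Mbl2 encode sugar-binding recognition proteins of plasma. Mbl1 (ENSMUSG00000037780, GRCm38 chromosome 14, 41151458 to 41159601) had 16.3, 22.3 and 29.2 FPKM in HepKO libraries, against 91.8, 75.4 and 68.3 FPKM in Flox libraries. The groups lay far apart, and its fall, 3.47-fold by mean FPKM, was the largest of the 14 (log2 difference -1.78, SE 0.22, limma adjusted p = 0.00314). Mbl2 (chromosome 19, 30232942 to 30239687) had 71.0, 74.5 and 71.7 FPKM in HepKO libraries, against 81.4, 130.4 and 128 FPKM in Flox libraries. The groups did not overlap, but Flox replicate 1 lay close to the HepKO libraries, and the difference did not pass (log2 fold change -0.61, SE 0.19, adjusted p = 0.066). Without Flox replicate 1 it passed (adjusted p = 0.00638).

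Fcna, the ficolin A gene that macrophages also express, had 15.2, 22.4 and 20.0 FPKM in HepKO libraries, against 15.0, 12.2 and 17.0 FPKM in Flox libraries. The groups overlapped, and its log2 fold change of 0.36 had a 95% interval of -0.07 to 0.78 (limma adjusted p = 0.203). Among the proteases that the lectins activate, Masp2, which cleaves C4 and C2, had 24.7, 23.9 and 21.2 FPKM in HepKO libraries, against 28.7, 34.6 and 30.7 FPKM in Flox libraries. It fell (log2 fold change -0.41, SE 0.11, adjusted p = 0.0463), with no overlap, but the call was lost whichever single library was left out (adjusted p 0.0515 to 0.136) and after both rescalings (0.103 and 0.105). Masp2 overlaps Tardbp (14.5 FPKM) on the opposite strand. Masp1, the other protease gene, had 17.7, 14.7 and 14.0 FPKM in HepKO libraries, against 11.9, 13.6 and 13.6 FPKM in Flox libraries. Its HepKO values were all higher, but the difference did not pass (log2 fold change 0.22, SE 0.12, adjusted p = 0.241). Masp1 overlaps Rtp4 (2.82 FPKM) on the opposite strand.

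In the classical route, the proteases C1r and C1s sit in the C1 complex, and their genes lie together on chromosome 6. C1s1 had 57.7, 65.1 and 57.4 FPKM in HepKO libraries, against 77.2, 99.1 and 90.1 FPKM in Flox libraries. It fell with no overlap (log2 fold change -0.55, SE 0.12, limma adjusted p = 0.0250), a call that stood without Flox replicate 1 and was lost when any other library was left out (adjusted p 0.0558 to 0.0822). C1rl, a C1r-like protease gene, had 31.7, 30.1 and 27.3 FPKM in HepKO libraries, against 43.6, 42.2 and 40.7 FPKM in Flox libraries. The groups were well separated and it fell (log2 fold change -0.49, SE 0.10, adjusted p = 0.0171), lost without HepKO replicate 2 (0.0623) or Flox replicate 2 (0.0614). C1ra overlapped between groups, at 42.7, 43.9 and 37.5 FPKM in HepKO libraries, against 42.9, 54.1 and 51.2 FPKM in Flox libraries (log2 fold change -0.25, 95% interval -0.54 to 0.05, adjusted p = 0.206).

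C2 and C4, which form the C3-cleaving enzyme of this route, lie on chromosome 17. C2 had 6.18, 7.40 and 7.16 FPKM in HepKO libraries, against 8.06, 12.6 and 12.3 FPKM in Flox libraries. C4b had 118, 139 and 123 FPKM in HepKO libraries, against 131, 166 and 167 FPKM in Flox libraries. C4a, the less abundant C4 gene, had 3.67, 5.08 and 5.06 FPKM in HepKO libraries, against 4.23, 12.3 and 11.2 FPKM in Flox libraries. In all 3 genes Flox replicate 1 was the lowest Flox library, and for C4a and C4b it lay among the HepKO libraries. None passed (limma adjusted p = 0.0627 for C2, 0.177 for C4b and 0.173 for C4a), with log2 fold changes of -0.58, -0.28 and -0.77. Without Flox replicate 1, C2 (adjusted p = 0.0123) and C4a (0.00834) passed, with log2 fold changes of -0.77 and -1.20.

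Several of these genes share sequence with a near copy, so the split of their reads is uncertain. Of the 50-base words in the longest GENCODE M21 transcript, C4a shares 35.2% with C4b, C1ra shares 48.0% with C1rb and C1s1 shares 24.3% with C1s2. Cfb shares 81.4% and C2 58.0% with Gm20547, a transcript annotated across both genes that averaged 0.00231 FPKM. C1rl overlaps Gm44096 (4.08 FPKM) on the opposite strand. Nothing in the labels tells if strand was used in counting, so it is unknown whether reads of such pairs were told apart.

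In the alternative group C3, the component that all routes cleave, was the most abundant member, at 963, 901 and 915 FPKM in HepKO libraries, against 1261, 1347 and 1205 FPKM in Flox libraries. Every HepKO library was lower, and C3 fell 1.37-fold (log2 fold change -0.46, SE 0.10, limma adjusted p = 0.0200). The call was lost without HepKO replicate 2 (0.0789), Flox replicate 2 (0.0842) or Flox replicate 3 (0.0581), and after median-ratio rescaling (0.0530). Cfb, which encodes the protease subunit of the alternative C3 convertase, had 191, 198 and 201 FPKM in HepKO libraries, against 228, 307 and 292 FPKM in Flox libraries. It fell at the edge of the threshold (log2 fold change -0.47, SE 0.13, adjusted p = 0.0497), and only the fit without Flox replicate 1 kept the call among those leaving out a library (0.0158); the others gave 0.0876 to 0.150, and both rescalings lost it (0.0659 and 0.0815).

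Properdin, encoded by Cfp, stabilizes that convertase and is known as a product of myeloid cells. Cfp had 6.70, 9.90 and 7.83 FPKM in HepKO libraries, against 7.23, 4.85 and 7.89 FPKM in Flox libraries. The groups overlapped (log2 fold change 0.26, 95% interval -0.21 to 0.74, limma adjusted p = 0.387). Cfd, the factor D or adipsin gene best known from fat cells, was listed at 0 in all HepKO libraries and in 2 Flox libraries, and at 0.0633 FPKM in Flox replicate 1. The fat-cell marker Adipoq was listed at 0 in every library.

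The terminal genes encode C5 (gene Hc) and the C6 to C9 proteins that build the membrane pore. Hc (ENSMUSG00000026874, GRCm38 chromosome 2, 34983331 to 35061438), whose promoter is printed above, had 41.9, 42.9 and 41.7 FPKM in HepKO libraries, against 81.3, 97.1 and 90.5 FPKM in Flox libraries. HepKO values lay close together and far below every Flox value. Hc fell 2.13-fold and had the smallest adjusted p of the members (log2 fold change -1.07, SE 0.10, limma adjusted p = 0.00142). C9 (ENSMUSG00000022149, chromosome 15, 6445327 to 6498751), which polymerizes into the pore, had 27.3, 27.0 and 23.8 FPKM in HepKO libraries, against 56.5, 71.3 and 52.6 FPKM in Flox libraries. It fell 2.31-fold with no overlap (log2 fold change -1.17, SE 0.14, adjusted p = 0.00277).

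C6 had 8.92, 9.52 and 9.09 FPKM in HepKO libraries, against 17.5, 20.2 and 12.3 FPKM in Flox libraries. It fell (log2 fold change -0.77, SE 0.18, limma adjusted p = 0.0272), and the call stood without Flox replicate 3 but not without any other library (adjusted p 0.0619 to 0.0753). C8 is assembled from 3 chains with a gene each. C8a, the alpha chain, had 69.9, 80.7 and 80.0 FPKM in HepKO libraries, against 113, 126 and 110.4 FPKM in Flox libraries, and fell (log2 fold change -0.59, SE 0.11, adjusted p = 0.0123; 0.0509 without Flox replicate 2). C8b, the beta chain, had 42.7, 44.0 and 42.0 FPKM in HepKO libraries, against 49.4, 53.9 and 49.8 FPKM in Flox libraries. Its values did not overlap, but the difference of -0.24 (95% interval -0.46 to -0.03) did not pass (adjusted p = 0.105). C8g, the gamma chain, had 54.6, 83.5 and 86.9 FPKM in HepKO libraries, against 97.8, 98.7 and 95.9 FPKM in Flox libraries. HepKO replicate 1 was far below the other HepKO libraries, and the difference did not pass (log2 fold change -0.40, adjusted p = 0.166). C8g overlaps Fbxw5 (10.7 FPKM) on the opposite strand.

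C7 was the exception in direction. It had 0.704, 0.668 and 0.564 FPKM in HepKO libraries, against 0.269, 0.150 and 0.169 FPKM in Flox libraries, the lowest level of any terminal gene but higher in every HepKO library. Its mean ratio was 3.30. It was below the level needed for the main test, and with no filter on low values it was called higher (log2 fold change 0.46, SE 0.08, limma adjusted p = 0.0259 over 26473 genes). In that fit 8 members were lower and 3 higher, where 899 and 941 of the 26473 genes were. Markers of stellate cells and fibroblasts, sources of C7 in other tissues, summed to 43.4 to 57.1 FPKM in HepKO libraries and 33.0 to 51.5 FPKM in Flox libraries. Of the 10, 1 was called higher and 1 lower, where 9.33% and 11.0% of all tested genes were. The higher HepKO sums came from Dcn, which averaged 33.4 FPKM in HepKO libraries and 18.6 FPKM in Flox libraries. The median log2 fold change of the 10 was -0.12. The part of these cells in the C7 result was not tested.

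Among regulators in plasma, Cfi, the protease factor I that inactivates C3b and C4b, had 142, 149 and 153 FPKM in HepKO libraries, against 202, 276 and 256 FPKM in Flox libraries. It fell 1.65-fold with no overlap (log2 fold change -0.71, SE 0.14, limma adjusted p = 0.0144), a call lost without HepKO replicate 2 (0.0538), Flox replicate 2 (0.0515) or Flox replicate 3 (0.0561). Cfhr2, which encodes a plasma protein of this system, had 94.8, 73.3 and 108 FPKM in HepKO libraries, against 131, 163 and 144 FPKM in Flox libraries. It fell (log2 fold change -0.67, SE 0.17, adjusted p = 0.0328), lost without HepKO replicate 1 (0.0684), HepKO replicate 2 (0.0824), Flox replicate 2 (0.105) or Flox replicate 3 (0.0892). Of its 50-base words, 35.3% occur in other genes.

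Vtn, encoding vitronectin, which binds nascent terminal complexes, had 826, 907 and 920.4 FPKM in HepKO libraries, against 1205, 1246 and 1134 FPKM in Flox libraries. It fell 1.35-fold (log2 fold change -0.43, SE 0.10, limma adjusted p = 0.0257), lost without HepKO replicate 2 (0.0767), Flox replicate 1 (0.0537), Flox replicate 2 (0.0980) or Flox replicate 3 (0.0681). The other plasma regulators overlapped between groups. C4bp, which binds C4b, had 76.3, 84.4 and 89.1 FPKM in HepKO libraries, against 85.2, 86.3 and 77.8 FPKM in Flox libraries, a log2 difference of 0.00 with a 95% interval of -0.24 to 0.25. Serping1, the C1 inhibitor gene, had 298, 247 and 229 FPKM in HepKO libraries, against 265, 279 and 262 FPKM in Flox libraries (difference -0.07, interval -0.36 to 0.23). Clu, encoding clusterin, had 487, 475 and 442 FPKM in HepKO libraries, against 558, 446 and 429 FPKM in Flox libraries (difference -0.02, interval -0.33 to 0.29; after median-ratio and common-sum rescaling 0.04 each). These intervals leave room for differences in either direction, so equal levels are not shown.

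Among regulators on membranes, Cd59a, which blocks C9 insertion, had 4.21, 5.95 and 4.73 FPKM in HepKO libraries, against 7.82, 7.69 and 8.68 FPKM in Flox libraries. It fell with no overlap (log2 fold change -0.61, SE 0.13, limma adjusted p = 0.0220), lost without HepKO replicate 1 (0.0570), HepKO replicate 3 (0.0540), Flox replicate 2 (0.0615) or Flox replicate 3 (0.0747). Cr1l, the rodent regulator Crry that limits C3 deposition, had 2.67, 2.57 and 2.88 FPKM in HepKO libraries, against 2.36, 2.50 and 3.05 FPKM in Flox libraries. Cd55, which speeds the decay of C3 convertases, had 1.23, 1.56 and 1.07 FPKM in HepKO libraries, against 1.72, 1.54 and 1.31 FPKM in Flox libraries. Both overlapped between groups and did not pass (adjusted p = 0.872 and 0.452). Cd46, in mice a gene known mainly from testis, stayed at 0.0792 to 0.119 FPKM in HepKO libraries and 0.0784 to 0.209 FPKM in Flox libraries and was not tested.

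C3ar1 and C5ar1, the anaphylatoxin receptor genes, encode the receptors for C3a and C5a and are known from myeloid cells. C3ar1 (ENSMUSG00000040552, GRCm38 chromosome 6, 122847138 to 122856161) had 1.06, 2.10 and 1.57 FPKM in HepKO libraries, against 0.216, 0.187 and 0.316 FPKM in Flox libraries. The groups were well apart, and mean FPKM rose 6.57-fold (log2 difference 1.04, SE 0.16, limma adjusted p = 0.00748). It entered the test through its HepKO level and drops out of it when a mean of at least 1 FPKM is asked. C5ar1 (ENSMUSG00000049130, chromosome 7, 16246743 to 16259540) had 2.83, 2.63 and 2.17 FPKM in HepKO libraries, against 0.973, 0.538 and 0.431 FPKM in Flox libraries. It rose 3.93-fold with no overlap (log2 fold change 1.11, SE 0.15, adjusted p = 0.00461).

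Neutrophil markers were also higher in HepKO libraries. The 10 marker genes summed to 138 to 164 FPKM in HepKO libraries and 10.9 to 21.0 FPKM in Flox libraries. Of the 10, 9 were tested and called higher, but Cxcr2, Mmp8, Mmp9, Il1r2 and Clec4d, at 0.173 to 0.384 FPKM on average in Flox libraries, entered the test only through their HepKO level. Ly6g was not tested and was listed at 0.137, 0 and 0.235 FPKM in HepKO libraries and at 0 in all Flox libraries. Of 9 monocyte and macrophage markers, 7 were tested, 4 were called higher and 1 lower, 3 of these calls (Ccr2, Itgam and Gpnmb) being on genes that passed the filter through 1 group alone, with sums of 125 to 159 FPKM in HepKO libraries and 86.4 to 109 FPKM in Flox libraries. Kupffer cell markers had 1 of 8 higher and none lower, where 9.33% and 11.0% of all tested genes were. Their sums were 69.6 to 92.8 FPKM in HepKO libraries and 38.6 to 75.4 FPKM in Flox libraries. The higher HepKO sums came from Marco, which averaged 39.8 FPKM in HepKO libraries and 12.96 FPKM in Flox libraries. Clec4f, Cd5l, Timd4 and Adgre1 averaged lower in HepKO libraries, and Cd163, Vsig4 and Folr2 averaged higher, but none of these passed. The part of neutrophils, monocytes, macrophages and Kupffer cells in the receptor result was not tested.

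**Figure D3:**
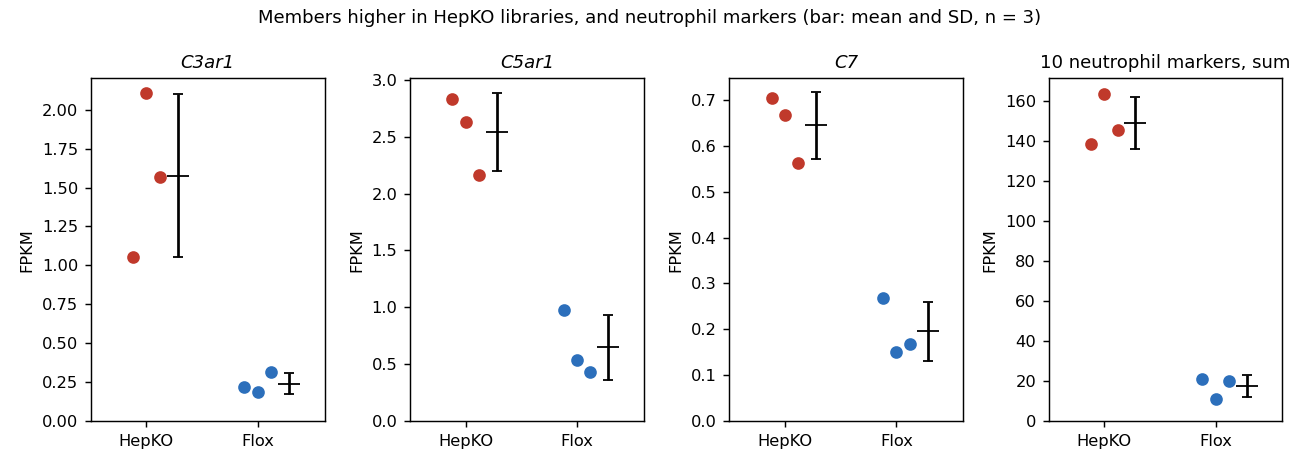
FPKM of C3ar1, C5ar1 and C7 and the summed FPKM of 10 neutrophil markers in each library, HepKO (red) left of Flox (blue), with mean and SD beside the points (n = 3 each). In each panel all 3 HepKO libraries lie above all 3 Flox libraries; the marker sums are 138 to 164 FPKM in HepKO libraries and 10.9 to 21.0 FPKM in Flox libraries.

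Across libraries, the pattern was shared by the HepKO libraries, with some outliers among single genes. Of 31 tested members, 18 were lower in every HepKO library than in any Flox library and 3 higher, where 25.2% and 17.2% of all tested genes were. The untested C7 was higher in all HepKO libraries too. Flox replicate 1 was the lowest Flox library for 14 tested members and Flox replicate 3 for 13. Flox replicate 2 was the highest Flox library for 19. In HepKO libraries, replicate 1 was lowest for 16 members, among them C8g and Mbl1, and that library also had the highest mitochondrial share. Without HepKO replicate 1, 8 members and 792 of all 12712 tested genes were called lower, against 14 and 1397 with all libraries.

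**Figure D4:**
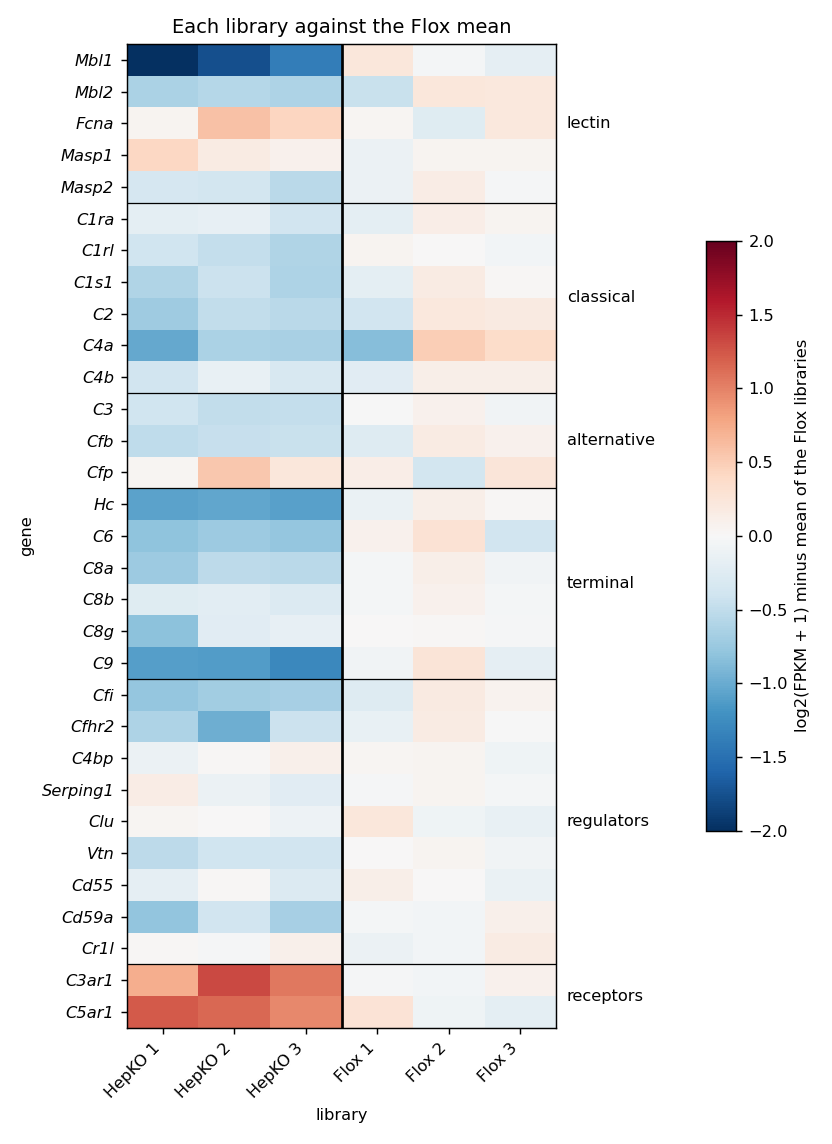
Log2(FPKM + 1) of each library minus the mean of the Flox libraries for the 31 tested members, HepKO libraries left of Flox libraries, in 6 role groups (blue lower, red higher, scale -2 to 2). Mbl1, Hc and C9 are blue in all 3 HepKO libraries, C3ar1 and C5ar1 red, and C4a is blue in Flox replicate 1 as well.

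**Figure D5:**
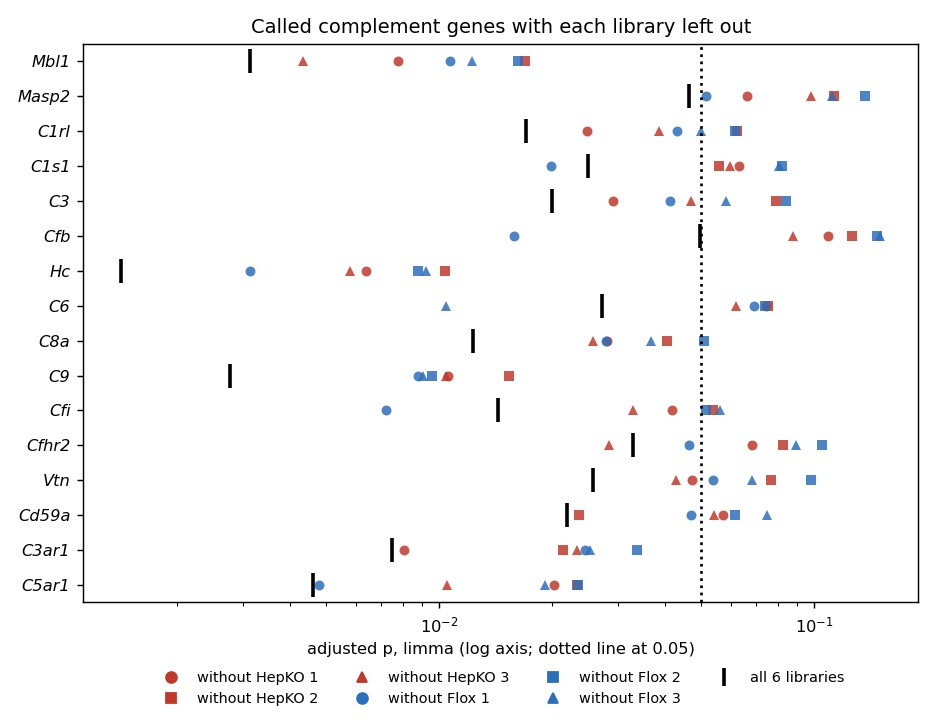
Adjusted p (limma, log axis) of the 16 called members with all 6 libraries (black bar) and with each library left out (red HepKO, blue Flox; shape gives the replicate). Mbl1, Hc, C9, C3ar1 and C5ar1 stay left of the dotted line at 0.05 in every fit, and Masp2 lies right of it in all 6.

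Other genes of the cascade changed in both directions. Of 29 further complement genes, 22 were tested, and 5 fell, 4 rose and 13 did not pass, where 11.0% of all tested genes were called lower and 9.33% higher. Cpn1 and Cpn2, the subunits of the carboxypeptidase that inactivates anaphylatoxins, averaged 40.1 and 22.6 FPKM in HepKO libraries, against 62.2 and 48.0 FPKM in Flox libraries (limma adjusted p = 0.00748 and 0.00162). Crp, a pentraxin that can bind C1q, averaged 72.8 FPKM in HepKO libraries and 120.0 FPKM in Flox libraries (adjusted p = 0.0139; 0.0564 without Flox replicate 2).

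The further genes that rose are known from leukocytes and endothelium. Itgam and Itgb2, the chains of complement receptor CR3, averaged 2.73 and 4.51 FPKM in HepKO libraries, against 0.283 and 1.56 FPKM in Flox libraries (limma adjusted p = 0.000965 and 0.00314). Itgam, too, entered the test only through its HepKO level. Cd93, a receptor gene of endothelial and myeloid cells, averaged 9.85 FPKM in HepKO libraries and 2.08 FPKM in Flox libraries (adjusted p = 0.00111). Colec12, a scavenger collectin, averaged 5.33 FPKM in HepKO libraries and 2.52 FPKM in Flox libraries (adjusted p = 0.00247). Sinusoidal endothelial markers summed to 32.2 to 42.0 FPKM in HepKO libraries and 28.6 to 34.2 FPKM in Flox libraries, with 3 of 7 higher and 1 lower. The higher HepKO sums came from Lyve1, which averaged 14.2 FPKM in HepKO libraries and 5.80 FPKM in Flox libraries. With no overlap between groups, 3 of the 7 were lower and 3 higher, where 25.2% and 17.2% of all tested genes were. The part of these cells in these results was not tested. Calr, the most abundant gene of the list, averaged 467 FPKM in HepKO libraries and 472 FPKM in Flox libraries (adjusted p = 0.929).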

How the data were processed

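Poly(A) RNA of whole liver was sequenced as paired reads in 6 dUTP-marked libraries, per the labels' protocols. The deposited table gives FPKM per gene and library, made by the authors, with their p-value and q-value columns, per the file headers. DESeq2, edgeR, StringTie 1.3.4d, HISAT2 2.0.4 and cutadapt 1.9 are listed, with no roles, per the submitters' processing notes. No genome build is named in the labels or headers; 31 of the 34 members have the same coordinates in GENCODE M21 (GRCm38). FPKM are not counts, so depth is unknown and no count test was run.

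Genes averaging 0.5 FPKM or more were tested with limma 3.58.1 (R 4.3.3) on log2(FPKM + 1), with the variance trend and genotype as the only term. This scale understates the change of low genes. Folds are ratios of mean FPKM. The test was checked on simulated data. Nothing states that the libraries come from separate animals, and p-values then measure only the spread between these libraries, which may be technical. Alternatives were other pseudocounts, filters, scalings and limma settings, a fit with replicate number as block, and fits without 1 library. All 34 members are named; of the further complement genes, up to 4 called in each direction by smallest p and the 2 most abundant, except that some are not reported here. Members, lists and motifs were chosen with earlier results of these data known. Python 3.11.15, pandas 2.3.3, scipy 1.17.1 and matplotlib 3.10.9 were used.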

Additional observations from a re-analysis of the deposited data

How the results depend on the processing

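With a pseudocount of 0.1 or 0.5 there were again 14 falls and 2 rises among members. With no filter on low values (26473 genes tested), 8 members were lower, among them 1 lectin, 0 alternative and 2 regulator genes. C7 made 1 terminal gene higher. Of all genes in that fit, 899 were lower and 941 higher. With a mean of at least 1 FPKM, 1 member and so 1 receptor was higher, because C3ar1 is then not tested. Median-ratio rescaling called 11 members lower, with 1 lectin and 0 alternative genes, and common-sum rescaling 12, with 1 of each. Of all tested genes, 1260 and 1231 were lower in these fits, and their median moved to -0.02 under both. Without the variance trend, or with robust empirical Bayes, 1 alternative gene was lower, as Cfb no longer passed. Same-numbered libraries did not deviate together (correlations 0.0029, 0.0021 and -0.025). These values gave no sign of pairing by number, but with so few libraries they cannot exclude it. With the replicate block, 775 genes were lower and 776 higher, and 7 members were lower: 1 lectin, 1 classical, 0 alternative, 4 terminal and 1 regulator gene; Nedd4 kept -1.04. Leaving out each library gave 616 to 1302 lower and 685 to 1022 higher of all genes, and 3 to 14 members lower: 1 to 2 lectin, 0 to 4 classical, 0 to 2 alternative, 2 to 4 terminal and 0 to 3 regulator genes. Log2 fold changes near 0 changed sign. Rescaling by median ratio and common sum gave 0.0435 and 0.0402 for Clu and 0.0488 and 0.0455 for Calr. Without 1 library the range was -0.0469 to 0.0635 for C4bp, -0.175 to 0.0154 for Serping1, -0.0931 to 0.0963 for Clu, -0.0236 to 0.111 for Cr1l and -0.0440 to 0.0240 for Calr. The cause of these changes was not tested. Depth is unknown, so no counting error can be given for the low genes Cfd, Cd46, C7, C3ar1 and C5ar1.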

Other observations

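Ratios of FPKM between pairs of members within a library were chosen after their values were seen and are given as a description. Mbl1 over Fcna was 1.07, 0.996 and 1.46 in HepKO libraries, against 6.10, 6.18 and 4.02 in Flox libraries. Masp1 over Masp2 was 0.718, 0.615 and 0.658 in HepKO libraries, against 0.416, 0.392 and 0.445 in Flox libraries. C8a over C8b was 1.635, 1.835 and 1.903 in HepKO libraries, against 2.28, 2.33 and 2.22 in Flox libraries. C1ra over C1s1 was 0.740, 0.674 and 0.654 in HepKO libraries, against 0.556, 0.546 and 0.569 in Flox libraries. In these 4 ratios the groups did not overlap. In the next 3 they overlapped. C8g over C8b was 1.277, 1.897 and 2.067 in HepKO libraries, against 1.981, 1.83 and 1.928 in Flox libraries. C4a over C4b was 0.0311, 0.0367 and 0.0412 in HepKO libraries, against 0.0322, 0.0740 and 0.0668 in Flox libraries. C3 over Vtn was 1.17, 0.993 and 0.994 in HepKO libraries, against 1.05, 1.08 and 1.06 in Flox libraries. Mbl1 over Mbl2 was 0.230, 0.299 and 0.407 in HepKO libraries, against 1.13, 0.578 and 0.535 in Flox libraries. C9 over C6 was 3.06, 2.84 and 2.62 in HepKO libraries, against 3.24, 3.53 and 4.29 in Flox libraries. Cfi over C4bp was 1.85, 1.76 and 1.72 in HepKO libraries, against 2.375, 3.20 and 3.29 in Flox libraries. The groups did not overlap in these last 3 ratios, so 7 of 10 computed ratios did not overlap and 3 did. An exact permutation test cannot go below p = 0.10 with 3 against 3 libraries.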
